A study of Homo sapiens with 18 samples.

Results

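The 38 genes described here are 23 enzymes and transporters of glycolysis and 15 other genes of the hypoxia response, taken by gene symbol from the 59251 genes of the count tables. The 15 are HIF1A, which encodes the oxygen-regulated subunit of hypoxia-inducible factor (HIF), and 14 known targets of that factor outside glycolysis. RNA was sequenced in 18 libraries of HAP1, human cells with a nearly haploid genome that descend from a chronic myeloid leukaemia, forming 6 groups of 3. The unmodified parental line was grown with doxycycline or without it. A line labelled ∆SARS2+SARS2-1xFLAG, in which SARS2 was deleted and a FLAG-tagged SARS2 was put back (the deleted line), was grown with doxycycline or collected 3, 6 or 9 days after its removal. Doxycycline was given at 15 ng/mL, and cells of all groups were kept in it until it was withdrawn. The time without doxycycline in the parental line, the promoter of the tagged SARS2, whether the deleted line was 1 clone, and the origin of replicates as separate cultures are details not given in the sources used here. SARS2 is the enzyme that loads serine onto transfer RNA inside mitochondria. The series sets cells meant to express it beside cells meant to be depleted of it.

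Glycolysis splits glucose into pyruvate in the cytosol and yields ATP without oxygen. Glucose enters through carriers such as SLC2A1, hexokinases trap it, and lactate dehydrogenase turns pyruvate into lactate, which leaves through SLC16A transporters. Cells with a failing respiratory chain, which depends on protein synthesis inside mitochondria, rely on this route for ATP. HIF is a transcription factor that raises many glycolytic genes together with genes for angiogenesis, mitophagy and collagen modification when oxygen is low. In normal oxygen the HIF1A protein is hydroxylated by EGLN enzymes and destroyed, so that HIF is controlled mostly at its protein rather than its messenger RNA.

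Levels are given as CPM, counts scaled to a common library size, and levels of different genes are set beside each other only per kilobase of exon length (RPKM). Errors after a level are SD with n = 3, and errors after a log2 fold change are its standard error. A gene was called when its adjusted p in edgeR's quasi-likelihood test was under 0.05 over the 21615 genes tested, and the words rose, fell, higher in and lower in are kept for called genes. Of the 38 genes, 37 passed the filter on low counts. CA9, a carbonic anhydrase that is nearly silent without HIF, did not. It held 63 counts in all 18 libraries, 24, 6 and 16 of them in the parental line without doxycycline and 0 in every library of the deleted line with doxycycline.

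Libraries held 66850705 to 111123481 counts. SARS2 itself stood in the deleted line at 23.5, 25.2 and 23.9 CPM with doxycycline, 30.5, 31.9 and 32.4 at day 3, 23.2, 25.8 and 25 at day 6, and 43.3, 34 and 48.1 at day 9. Its messenger was thus not lower in any group labelled as lacking doxycycline, and every direction over days below rests on the labels. SARS2 rose at day 9 (0.79 ± 0.10, adjusted p = 2.7e-06). Its day 3 rise (0.38 ± 0.10, adjusted p = 0.014) was not called when replicate 2 (0.38) or 3 (0.37) of day 3 was left out, or replicate 1 (0.36) of the doxycycline group. Of 12 blood cell markers, 0 or 1 reached a mean of 1 CPM in each group, and GATA1, HBG1, HBG2 and MPO were at 0 counts in all 18 libraries. Of 10 mesenchymal markers, 6 or 7 reached it, and their summed level was 597 to 658 CPM in the parental and 796 to 1210 CPM in the deleted line. Most of that sum was VIM, at 477 CPM in the parental and 642 in the deleted line with doxycycline. Of the 8 markers tested, 3 were higher in the deleted line with doxycycline, 0 lower and 5 not called (median 0.1). Of all genes, 9.32% were higher there. Of 9 epithelial markers, 3 or 4 reached a mean of 1 CPM, with sums of 39.1 to 69.6 CPM. Whether these markers play a part in the results was not tested.

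Per kilobase, the glycolytic genes were led by the enzymes of the later steps of the pathway. In the deleted line with doxycycline, GAPDH, which oxidises glyceraldehyde phosphate, stood at 1150 RPKM. LDHB (624), ENO1 (566), TPI1 (417), PKM (389) and LDHA (339) followed. The least abundant were the glucose carrier SLC2A3 (1.62), PFKFB4 (2.42), which makes and breaks down fructose 2,6-bisphosphate, and the lactate exporter SLC16A3 (6.05). Among the other genes, BNIP3, a mitophagy receptor, stood at 51.1 RPKM and HIF1A at 34.6. ANKRD37 was at 0.876 and CA9 at 0.

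Summed over the list, the 23 glycolytic genes took 11280, 10900 and 12240 CPM in the deleted line with doxycycline. The sum was 11820, 12490 and 12430 at day 3, 8931, 8249 and 8423 at day 6 and 13880, 13720 and 14920 at day 9. The day 6 libraries lay below, and the day 9 libraries above, all others of the line. The 15 other genes summed to 698, 677.8 and 685.6 CPM with doxycycline, 629.1, 643.8 and 625.9 at day 3, 794.5, 860.6 and 781.8 at day 6 and 626.2, 661.4 and 629.3 at day 9. Here the day 6 libraries were the highest of the line, and all day 3 and day 9 libraries lay below those with doxycycline. In the parental line the glycolytic sum was 13610 ± 204 with and 11160 ± 563 CPM without doxycycline, while the other sum was 672.1 ± 18.3 with and 927.1 ± 39.7 without. Within the deleted line, 13 of the 23 glycolytic genes had their lowest mean at day 6 and 14 their highest at day 9. Of the 15 other genes, 10 had their highest mean at day 6 and 6 their lowest at day 9. These counts take in genes that were not called, and the 10 include the nearly silent CA9. The same counts over all genes were not made, so no trait of the lists is read from them. In these bulk samples, fewer expressing cells and less RNA per cell cannot be told apart.

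**Figure D1:**
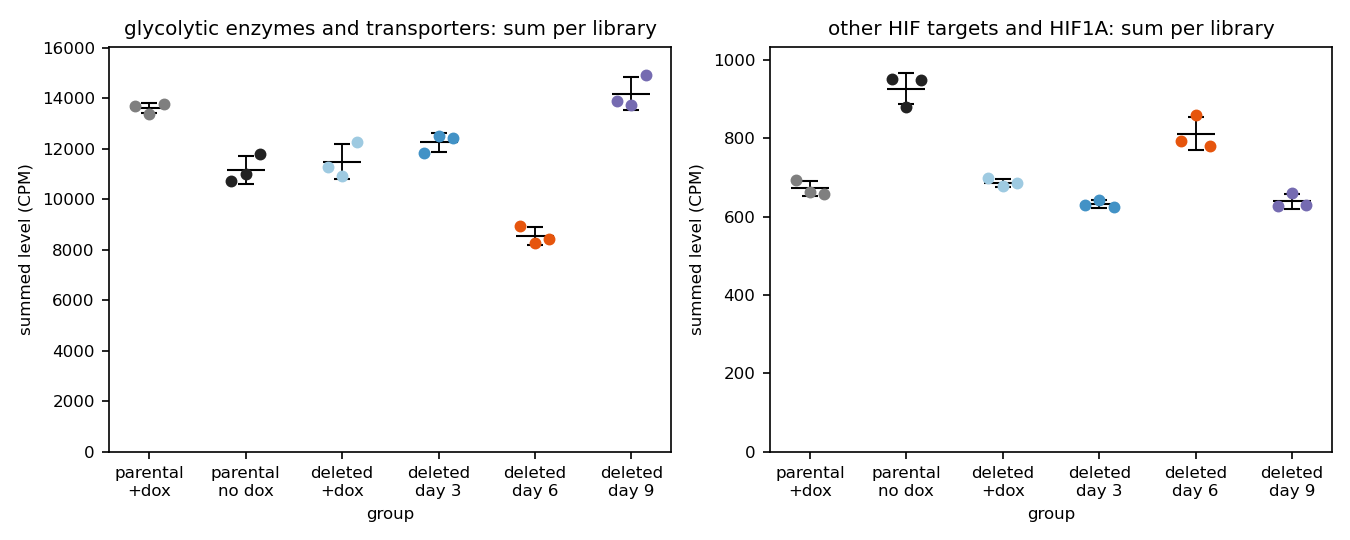
Summed level (CPM, y axis from 0) of the 23 glycolytic genes (left) and the 15 other hypoxia-response genes (right) in each of the 18 libraries (points), by group (x axis), with the group mean and SD (black lines). The glycolytic sum is lowest at day 6 (8535 ± 354) and highest at day 9 (14170 ± 655), and the other sum is highest in the parental line without doxycycline (927.1 ± 39.7). Abundant genes weigh most in both sums.

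Promoter sequences were taken from the RefSeq tables (GRCh38.p14), where 33 of the 38 genes had at least 1 window reaching from 250 bases before to 50 bases after a gene start. HIF binds the core ACGTG, searched here on both strands. It was present in 24 of the 63 windows (38.1%), against 21.4% of 35116 windows of all genes. By list, 17 of 46 glycolytic windows (37%) and 7 of 17 other windows (41.2%) held it. CACGTG, which contains ACGTG on both strands, was in 12.7% of the windows against 7.26% of all, and GCGTG, a further core, in 41.3% against 36.5%. Genes with several windows weigh more in these shares. Counted per gene, with any window enough, ACGTG was in 60.6% of the 33 genes against 24.9% of 27305 genes. For GCGTG this was 71.4% of glycolytic and 41.7% of other genes, against 40.6%. Genes with more windows have more chances in this count, for both motifs. The 21 glycolytic genes had 46 windows, the 12 others 17 and all 27305 genes 35116, so these shares per gene are not directly comparable. The windows below belong to genes that moved in opposite directions in the parental line without doxycycline: ALDOC and P4HA1 were higher there, LDHA and PGAM1 lower. They are ALDOC (chr17:28576846-28577145, minus strand), P4HA1 (chr10:73096817-73097116, minus strand), LDHA (chr11:18394313-18394612, plus strand) and PGAM1 (chr10:97427568-97427867, plus strand). Capitals mark ACGTG or its reverse complement CACGT, and CACGTG where they overlap.
ALDOC: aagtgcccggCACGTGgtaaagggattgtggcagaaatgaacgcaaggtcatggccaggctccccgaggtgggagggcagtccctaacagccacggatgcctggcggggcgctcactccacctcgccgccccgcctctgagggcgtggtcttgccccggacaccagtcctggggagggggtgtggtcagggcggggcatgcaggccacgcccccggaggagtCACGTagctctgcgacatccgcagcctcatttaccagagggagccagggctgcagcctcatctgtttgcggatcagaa
P4HA1: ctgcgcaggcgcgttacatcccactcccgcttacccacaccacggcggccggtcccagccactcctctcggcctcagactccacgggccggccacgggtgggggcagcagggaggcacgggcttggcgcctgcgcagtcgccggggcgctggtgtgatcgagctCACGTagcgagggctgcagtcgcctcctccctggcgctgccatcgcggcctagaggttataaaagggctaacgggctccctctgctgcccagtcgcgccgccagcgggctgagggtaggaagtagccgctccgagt
LDHA: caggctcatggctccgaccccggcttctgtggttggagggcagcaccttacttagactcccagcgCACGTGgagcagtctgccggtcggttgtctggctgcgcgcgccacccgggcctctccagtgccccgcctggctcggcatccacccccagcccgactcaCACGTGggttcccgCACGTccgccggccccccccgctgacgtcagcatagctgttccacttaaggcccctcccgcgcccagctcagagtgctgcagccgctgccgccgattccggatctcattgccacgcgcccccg
PGAM1: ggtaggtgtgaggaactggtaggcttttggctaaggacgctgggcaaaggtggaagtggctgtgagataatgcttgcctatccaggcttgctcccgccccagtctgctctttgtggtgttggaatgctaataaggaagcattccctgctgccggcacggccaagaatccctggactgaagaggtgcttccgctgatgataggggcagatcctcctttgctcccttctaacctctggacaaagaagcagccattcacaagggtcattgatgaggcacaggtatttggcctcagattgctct
The ALDOC window held 3 matches counted over both strands, 2 of them within 1 CACGTG, the LDHA window 5, the P4HA1 window 1 and the PGAM1 window 0. The PGAM1 window lies downstream of the gene start used in the count tables. A match describes these letters only, and the windows of genes that rose and of genes that fell both held matches.

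In the libraries labelled day 6, glycolytic enzymes fell and a few other HIF targets rose. Of the 23 glycolytic genes, 11 fell, 0 rose and 12 were not called, where 14% of all genes tested fell and 14% rose. The median log2 fold change was −0.21, against 0.01 over all genes tested. Of the 14 other genes tested, 3 rose, 1 fell and 10 were not called, with a median of 0.12. Fold changes over all genes also followed genomic span at day 6 (Spearman's rho 0.185 over 21615 genes, a description). NEAT1, a long nuclear RNA chosen after its values were seen, stood at 13, 18.2 and 17.7 CPM at day 6 and 6.65, 7.22 and 6.7 with doxycycline. With the trend on exon length and span removed, 14 glycolytic genes fell and 0 rose (median −0.31, all genes −0.06), and 4 other genes rose and 0 fell (median 0.02). Of all 21615 genes tested, 3967 fell and 1927 rose with that trend removed. With libraries scaled by size alone, 9 glycolytic genes fell and 1 rose, 7 other genes rose and 0 fell, and 64.3% of all called genes were higher in place of 50%. Of all genes tested, 4048 rose and 2244 fell with that scaling.

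LDHA, the lactate dehydrogenase subunit that favours lactate production (chromosome 11, 18394563 to 18408425), showed the deepest fall of the list at day 6. It stood at 803, 808 and 934 CPM with doxycycline, 899, 938 and 907 at day 3, 546, 483 and 492 at day 6 and 1030, 973 and 1180 at day 9. Each day 6 library lay below, and each day 9 library above, every other library of the deleted line. The fall was −0.74 ± 0.08 (adjusted p = 2.4e-06) and the day 9 rise 0.32 ± 0.08 (adjusted p = 0.0017). PGAM1, which moves the phosphate of phosphoglycerate (chromosome 10, 97426191 to 97433444), went from 260, 248 and 284 CPM to 171, 159 and 163 (−0.68 ± 0.07, adjusted p = 2.4e-06). At day 9 PGAM1 stood at 313, 303 and 353 (0.29 ± 0.07, adjusted p = 0.002), and with GC, length and span trends removed this rise was 0.17, still called. The 3 groups did not overlap.

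TPI1, which interconverts the triose phosphates, stood at 750, 741 and 844 CPM with doxycycline, 554, 502 and 522 at day 6 and 1030, 1050 and 1070 at day 9. ENO1, an enolase, stood at 1770, 1680 and 1920 with doxycycline, 1310, 1210 and 1240 at day 6 and 2150, 2160 and 2330 at day 9. PKM, pyruvate kinase, stood at 2060, 1970 and 2250 with doxycycline, 1550, 1410 and 1470 at day 6 and 2780, 2780 and 2950 at day 9. For each of these enzymes the groups were separate, in the order day 6, doxycycline, day 9. Their day 6 changes were −0.56 ± 0.06, −0.51 ± 0.06 and −0.50 ± 0.07 (adjusted p = 2.4e-06, 1.6e-05 and 3.2e-05). At day 9 they rose by 0.43, 0.31 and 0.44 (adjusted p = 6.3e-06, 0.00061 and 2.8e-05), and the ENO1 rise was 0.18, still called, with GC, length and span trends removed. GAPDH went the same way, with 1990 ± 169 CPM with doxycycline, 1500 ± 64.9 at day 6 and 2710 ± 214 at day 9 (−0.41 and 0.44, adjusted p = 0.00015 and 2e-05).

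LDHB, the lactate dehydrogenase subunit that favours pyruvate, and PGK1, the first ATP-forming enzyme of the pathway, fell at day 6 and were not called at day 9. LDHB stood at 1110, 1110 and 1200 CPM with doxycycline and 853, 809 and 760 at day 6 (−0.50 ± 0.07, adjusted p = 4.5e-05). At day 9 LDHB was at 1110, 1060 and 1130, within the range of doxycycline or just below it (−0.05, adjusted p = 0.58). PGK1 went from 777 ± 31.4 to 569 ± 20.3 CPM at day 6 (−0.45 ± 0.06, adjusted p = 3e-05) and was at 840 ± 43.7 at day 9 (0.11, adjusted p = 0.13). Weaker falls at day 6 were those of SLC16A1 (−0.21, adjusted p = 0.049), a lactate transporter, ALDOA (−0.36, adjusted p = 0.016), an aldolase, and PFKFB4 (−0.38, adjusted p = 0.028). SLC16A1 was not called when replicate 2 (−0.16) or 3 (−0.20) of day 6 was left out, or replicate 2 (−0.23) or 3 (−0.16) of the doxycycline group, or with library size alone (−0.14). ALDOA was not called when replicate 3 of day 6 (−0.32) or of the deleted line with doxycycline (−0.33) was left out. PFKFB4 was not called when replicate 2 (−0.37) or 3 (−0.39) of day 6 was left out, or replicate 1 (−0.36) or 2 (−0.37) of the doxycycline group, or with library size alone (−0.31), and was at −0.58 with GC, length and span trends removed. The carriers, hexokinases, phosphofructokinases PFKL, PFKM and PFKP, and GPI, which act at the start of the pathway, were between −0.10 and 0.09 at day 6, none called.

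ALDOA needs care in these counts. The gene LOC112694756 lies on the same strand over 6136 bases of ALDOA and was counted at 1.6 CPM on average where ALDOA had 24.5 CPM. How reads shared by both genes were counted remains a point not given in the sources used here. For TPI1, named pseudogenes summed to 1.96% of the gene's level, for LDHA to 0.707% and for GAPDH to 0.497%. The hypoxia target VEGFA lies within the span of POLR1C (26.8 CPM on average) on the same strand, and BNIP3, SLC16A3, PFKM and ANKRD37 overlap expressed genes on the opposite strand. How far these overlaps changed the counts of these genes was not tested.

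**Figure D2:**
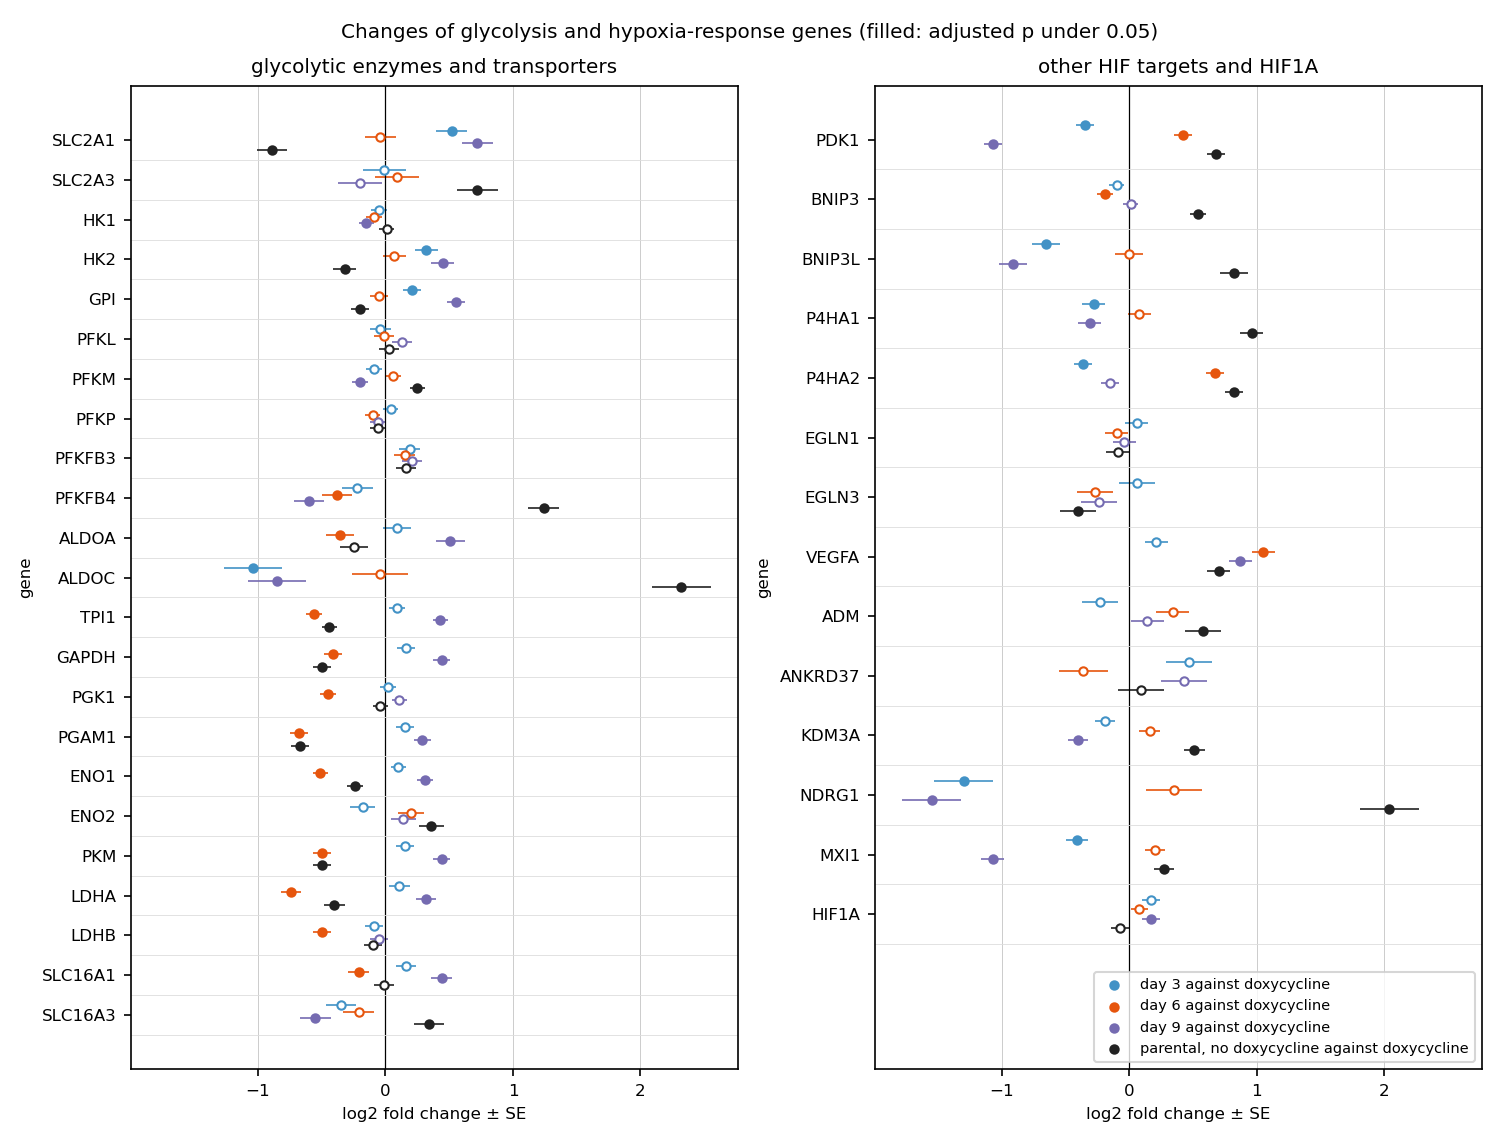
Log2 fold change ± SE (x axis) of each tested gene (y axis), for glycolytic genes (left) and other hypoxia-response genes (right), in the deleted line at day 3, day 6 and day 9 against doxycycline and in the parental line without against with doxycycline. Filled points have an adjusted p under 0.05: LDHA is at −0.74 at day 6 and 0.32 at day 9, and ALDOC and NDRG1 are at 2.32 and 2.04 in the parental line.

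VEGFA, the secreted growth factor of blood vessels (chromosome 6, 43770209 to 43786487), had the largest rise of the 37 genes at day 6. It stood at 72.4, 62.1 and 68 CPM with doxycycline, 74.3, 79.9 and 80.7 at day 3, 137, 147 and 136 at day 6 and 125, 142 and 102 at day 9. All day 6 and day 9 libraries lay above the rest of the line. VEGFA rose by 1.05 at day 6 and 0.87 at day 9, each ± 0.09 (adjusted p = 2.6e-07 and 2.8e-07). P4HA2, a collagen prolyl hydroxylase subunit (chromosome 5, 132190147 to 132227853), went from 37.8, 34 and 34.5 CPM with doxycycline to 28.3, 27.7 and 27.1 at day 3 and 55.7, 55.5 and 58.2 at day 6. Day 3 lay wholly below and day 6 wholly above doxycycline (−0.36 ± 0.07, adjusted p = 0.0037, and 0.67 ± 0.07, adjusted p = 4.1e-06). At day 9 P4HA2 stood at 33.5, 33.3 and 28.8 (−0.15, adjusted p = 0.088).

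PDK1, a kinase that shuts pyruvate dehydrogenase (chromosome 2, 172555373 to 172724312), moved at all 3 days. It stood at 43.6, 42.5 and 40.3 CPM with doxycycline, 34.7, 32.8 and 31.6 at day 3, 55.7, 56.7 and 56.6 at day 6 and 19.3, 19.2 and 21.7 at day 9. No group overlapped another. The changes at days 3, 6 and 9 were −0.35, 0.42 and −1.07, each ± 0.07 (adjusted p = 0.0041, 0.00031 and 3.9e-09). The day 6 rise was 0.23, still called, with the length and span trend removed. BNIP3 was the member of this list that fell at day 6 (−0.19 ± 0.06, adjusted p = 0.023; 77.8, 78.4 and 80.1 to 70.9, 70.1 and 65.7 CPM). Leaving out replicate 3 of day 6 (−0.17) or of the deleted line with doxycycline (−0.18) ended that call, as did analyses with library size alone (−0.13), with no low-count filter (−0.20) and with the trend on length and span (−0.17) or on GC as well (−0.12) removed.

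In the libraries labelled day 9, more glycolytic genes rose than fell, and more of the other genes fell than rose. Of the 23 glycolytic genes, 11 rose, 5 fell and 7 were not called (median 0.21, all genes −0.01). Of the 14 others, 2 rose, 6 fell and 6 were not called (median −0.20). Over all genes, 22.6% rose and 23.8% fell. Genomic span went with the changes in the opposite sense to day 6 (rho −0.136), and NEAT1 stood at 2.71, 2 and 3.99 CPM. With the length and span trend removed, 12 glycolytic genes rose and 4 fell (median 0.23, all genes 0.04), and 2 others rose and 5 fell (median −0.16). Of all genes tested, 5335 rose and 4279 fell with that trend removed. With library size alone, 1 other gene rose and 7 fell, where 4184 of all genes rose and 5903 fell.

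SLC2A1, the main glucose carrier (chromosome 1, 42925353 to 42958868), rose most at day 9 among the glycolytic genes. It stood at 37.4, 37.1 and 43.3 CPM with doxycycline, 53.2, 58.6 and 57.3 at day 3, 42.5, 33.5 and 38.9 at day 6 and 58.6, 56.5 and 79.2 at day 9. Days 3 and 9 lay wholly above doxycycline (0.52 ± 0.12, adjusted p = 0.0067, and 0.72 ± 0.12, adjusted p = 4.6e-05), and day 9 replicate 3 was the highest. GPI, which turns glucose phosphate into fructose phosphate, went from 350, 324 and 356 CPM to 501, 493 and 517 at day 9 (0.55 ± 0.07, adjusted p = 2.1e-06). ALDOA went from 22, 22 and 23.6 to 29.7, 28.9 and 37.5 CPM (0.51 ± 0.11, adjusted p = 0.00059). Neither gene's groups overlapped. HK2, a hexokinase, rose by 0.45 ± 0.09 (109 ± 2.46 to 149 ± 27.3 CPM, adjusted p = 0.00064) and SLC16A1 by 0.44 ± 0.08 (167 ± 10.4 to 226 ± 15.4 CPM, adjusted p = 0.00012).

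The glycolytic genes that fell at day 9 were the aldolase ALDOC, PFKFB4, the lactate exporter SLC16A3, the muscle phosphofructokinase PFKM and the hexokinase HK1. ALDOC (chromosome 17, 28573120 to 28576895) stood at 18.1, 16.9 and 13.9 CPM with doxycycline, 7.79, 7.57 and 8.5 at day 3, 14.3, 18.9 and 14.5 at day 6 and 9.56, 13 and 4.62 at day 9. Day 3 and day 9 lay below doxycycline, and day 9 spread widely. ALDOC fell by 1.04 at day 3 (SE 0.23, adjusted p = 0.0067) and by 0.85 at day 9 (SE 0.23, adjusted p = 0.0046), and without day 9 replicate 3 the latter was −0.53, still called. PFKFB4 went from 14.4, 14.5 and 13.4 CPM to 9.57, 11.2 and 7.27 at day 9 (−0.60 ± 0.12, adjusted p = 0.00063). SLC16A3 went from 61.4, 55.3 and 58.2 to 38.4, 50.2 and 31 CPM (−0.55 ± 0.12, adjusted p = 0.00084). Both were below doxycycline in every day 9 library. PFKM (−0.20, adjusted p = 0.012) was not called without deleted-line doxycycline replicate 1 (−0.17). HK1 (−0.15, adjusted p = 0.037) was not called when replicate 1 (−0.15) or 2 (−0.13) of day 9 was left out, or replicate 1 (−0.14) or 3 (−0.15) of the doxycycline group, with no low-count filter (−0.15) or with only the groups compared (−0.15), and turned to 0.06 with the length and span trend removed.

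NDRG1, a stress-responsive gene long used as a marker of hypoxia (chromosome 8, 133237175 to 133297252), had the deepest fall of the 37 genes at day 9. It stood at 7.99, 7.83 and 5.58 CPM with doxycycline, 2.81, 3.33 and 2.58 at day 3, 7.95, 11.7 and 7.72 at day 6 and 2.52, 3.2 and 1.59 at day 9. Days 3 and 9 lay wholly below doxycycline, and day 6 overlapped it. The changes at days 3, 6 and 9 were −1.30 ± 0.23, 0.35 ± 0.22 and −1.55 ± 0.23 (adjusted p = 0.0015, 0.25 and 2e-05). MXI1, a repressor that competes with MYC for its partner MAX, went from 66.7, 63.1 and 63.8 CPM to 50.6, 49.2 and 45.4 at day 3 and 29.6, 35.9 and 26.5 at day 9 (−1.07 ± 0.09, adjusted p = 2.3e-08). MXI1 was at 74.8, 78.3 and 69.4 at day 6 (0.20, adjusted p = 0.086), all above doxycycline though the test did not pass. BNIP3L, a mitophagy receptor, went from 76.4, 75 and 74.8 CPM to 48.5, 47.7 and 48.4 at day 3 and 37.7, 48.9 and 33.6 at day 9 (−0.91 ± 0.11, adjusted p = 1.8e-06).

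The histone demethylase KDM3A fell at day 9 from 54.8, 54.3 and 53.2 to 39.8, 38.5 and 44.6 CPM (−0.40 ± 0.08, adjusted p = 0.00054), with no overlap. P4HA1, the other collagen prolyl hydroxylase subunit, fell from 46.9 ± 1.84 to 37.8 ± 2.88 CPM (−0.31 ± 0.09, adjusted p = 0.0066), a call lost with the length and span trend removed (−0.18) and with GC removed as well (−0.12). HIF1A (chromosome 14, 61695513 to 61748258) stood at 146, 141 and 147 CPM with doxycycline, 160, 168 and 162 at day 3, 152, 163 and 145 at day 6 and 159, 150 and 181 at day 9. The 4 groups lay between 141 and 181 CPM. The day 9 value of 0.17 ± 0.07 (adjusted p = 0.039) was not called without deleted-line doxycycline replicate 1 (0.18), 2 (0.16) or 3 (0.19) or day 9 replicate 1 (0.19) or 3 (0.09), nor with library size alone (0.11), with no low-count filter (0.18) or with only the groups compared (0.17). It was 0.31 with GC, length and span trends removed. EGLN1 and EGLN3, the oxygen-sensing hydroxylases, were not called at any of the 3 days (−0.27 to 0.06), nor was ADM, the vasodilator peptide adrenomedullin (−0.23 to 0.34). ANKRD37, an ankyrin repeat gene at 1.03 to 1.83 CPM on average in these groups, gave 0.47, −0.36 and 0.43 (adjusted p = 0.097, 0.17 and 0.061).

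**Figure D3:**
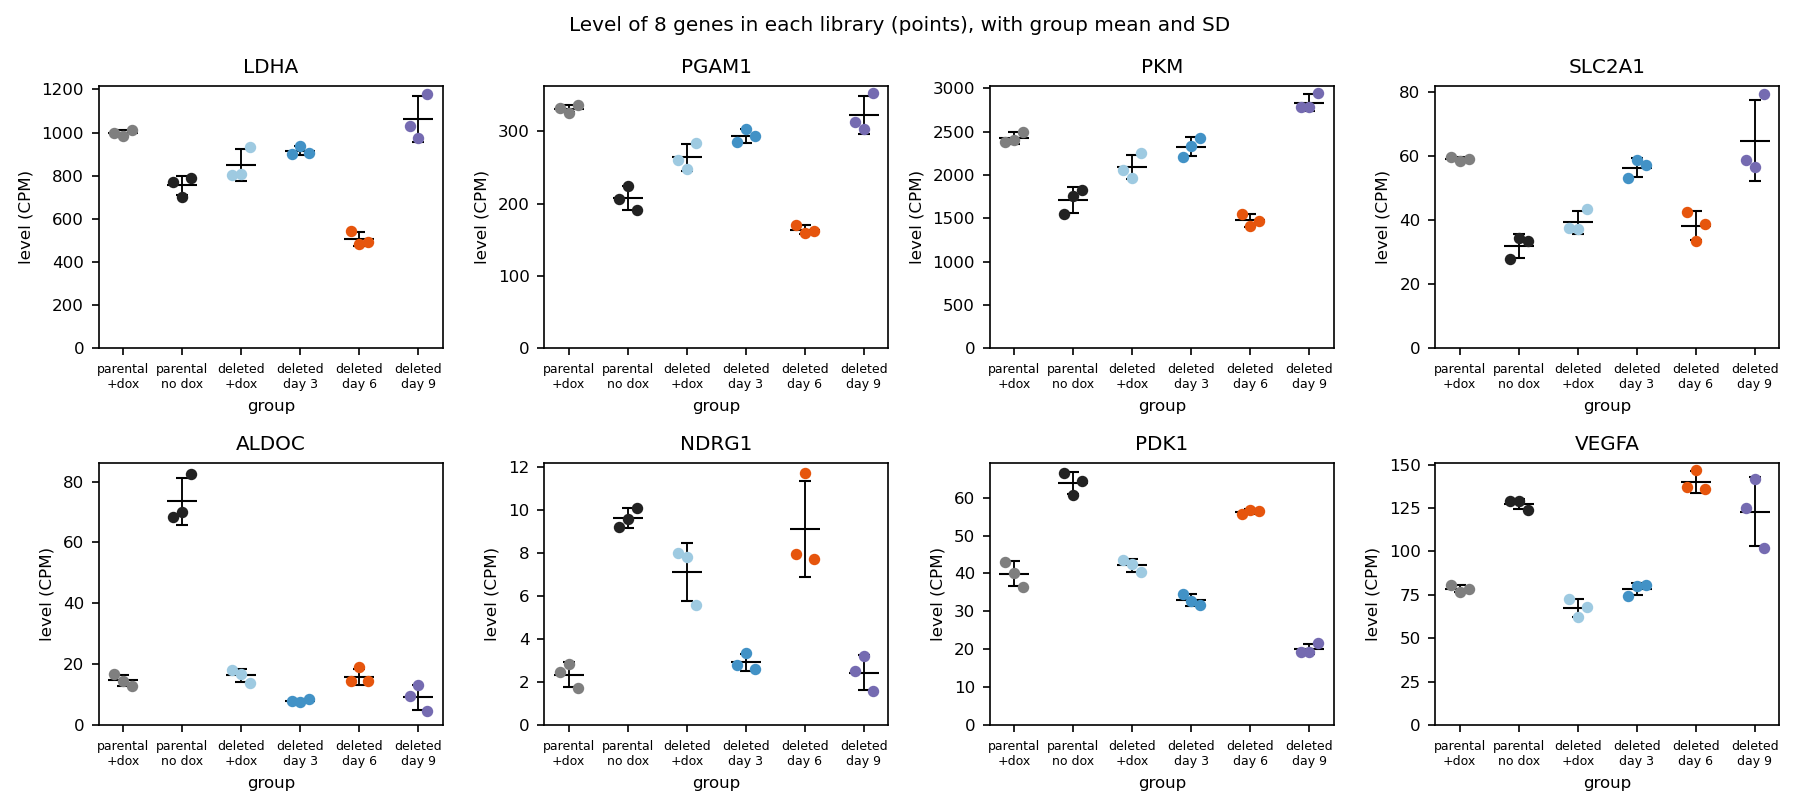
Level (CPM, y axes from 0) of 8 genes in each library (points), by group (x axis), with group mean and SD (black lines). LDHA, PGAM1 and PKM are lowest in the deleted line at day 6, ALDOC stands at 73.6 ± 7.68 in the parental line without doxycycline and at or below 18.9 in all others, and PDK1 falls to 20.1 ± 1.37 at day 9.

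In the libraries labelled day 3 fewer genes moved. Of the 23 glycolytic genes, 3 rose, 1 fell and 19 were not called (median 0.09, all genes 0), and of the 14 others, 0 rose, 6 fell and 8 were not called (median −0.21). Over all genes tested, 6.5% rose and 6.87% fell. With library size alone, 1 other gene rose and 6 fell, where 1485 of all genes rose and 1361 fell. With the fit limited to the 6 libraries compared, 22 of the 37 genes were called in place of 10. The share of all genes called in that fit is not given here, so the gain is not read as a trait of the members. The genes that rose were SLC2A1, HK2 (0.32 ± 0.09, adjusted p = 0.033) and GPI (0.21 ± 0.07, adjusted p = 0.044). HK2 was not called without deleted-line doxycycline replicate 1 (0.31), 2 (0.31) or 3 (0.34), without day 3 replicate 2 (0.32) or 3 (0.28), or with the length and span (0.28) or GC, length and span (0.27) trends removed. GPI was not called without any replicate of the doxycycline group (0.17 to 0.24) or without day 3 replicate 2 (0.21) or 3 (0.16). The other HIF targets that fell were NDRG1, BNIP3L (−0.65 ± 0.11, adjusted p = 0.001), MXI1 (−0.41 ± 0.09, adjusted p = 0.0041), P4HA2, PDK1 and P4HA1 (−0.28 ± 0.09, adjusted p = 0.041). P4HA1 was not called when any 1 of the 6 libraries was left out (−0.25 to −0.31), nor with the length and span trend removed, with or without GC (−0.23 each).

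Day 9 was also compared with day 6 directly, with 28.6% of all genes higher and 30.2% lower at day 9. Of the 23 glycolytic genes, 13 were higher, 3 lower and 7 not called (median 0.45), and of the 14 others, 2 were higher, 7 lower and 5 not called (median −0.29). The median over all genes was −0.02 and, with library size alone, −0.15, so that this scaling shifted all genes by −0.127. It gave 13 higher and 5 lower glycolytic genes (median 0.32) and 1 higher and 9 lower others (median −0.42), and 38.6% of all called genes were higher in place of 48.7%. With the length and span trend removed, 17 glycolytic genes were higher and 1 lower, and 3 others higher and 7 lower. Of all 21615 genes tested, 7250 were higher and 5148 lower with that trend removed. The largest differences were in LDHA (1.06 ± 0.08, adjusted p = 1.5e-09), TPI1 (1.00 ± 0.06, adjusted p = 1.4e-10) and PGAM1 (0.97 ± 0.07, adjusted p = 1.6e-09), and downwards in NDRG1 (−1.90 ± 0.23, adjusted p = 8.5e-07), PDK1 (−1.49 ± 0.07, adjusted p = 2.5e-11) and MXI1 (−1.27 ± 0.09, adjusted p = 8.5e-10). LDHB (0.45) and PGK1 (0.56) were higher at day 9 as well. The differences of PFKM (−0.26, to −0.13) and P4HA1 (−0.39, to −0.19) were not called with the length and span trend removed. BNIP3 (0.21, adjusted p = 0.0067) and ANKRD37 (0.79 ± 0.18, adjusted p = 0.0011) were the other HIF targets that were higher, BNIP3 not with library size alone (0.08), GC, length and span trends removed (0.09) or only the groups compared (0.20). SLC16A3 (−0.33, adjusted p = 0.021) was not called without day 6 replicate 1 (−0.28), day 9 replicate 1 (−0.31) or day 9 replicate 3 (−0.18), nor with only the groups compared (−0.34) or the length and span trend removed (−0.26), and was at −0.53 without day 9 replicate 2. Without day 9 replicate 3, ALDOC went from −0.81 to −0.50 and HK2 from 0.38 to 0.22, both still called. HK1 (−0.07, adjusted p = 0.35) turned to 0.30 with the length and span trend removed and to 0.27 with GC as well, both called.

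The parental line without doxycycline, in which SARS2 was not manipulated, differed from the same line with the drug at these genes too. Of the 14 other hypoxia-response genes tested, 10 were higher, 1 lower and 3 not called (median 0.56, all genes 0.03). Of the 23 glycolytic genes, 6 were higher, 9 lower and 8 not called (median −0.06). Over all genes, 21% were higher and 18.4% lower. The span of genes went with these changes (rho 0.145), and NEAT1 stood at 15, 12.6 and 16.2 CPM without and 3.85, 3.7 and 4.28 with doxycycline. With the length and span trend removed, 9 other genes were higher and 1 lower (median 0.50, all genes −0.04), and 4 glycolytic genes were higher and 10 lower (median −0.15). Of all genes tested, 3478 were higher and 5057 lower with that trend removed.

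ALDOC showed the largest change of the 37 genes, from 16.6, 14.6 and 12.9 CPM with doxycycline to 68.3, 70 and 82.4 without (2.32 ± 0.23, adjusted p = 7.1e-07). NDRG1 went from 2.46, 2.83 and 1.7 to 9.19, 9.58 and 10.1 CPM (2.04 ± 0.23, adjusted p = 2.8e-06). PFKFB4 went from 13, 11.8 and 10.1 to 24.7, 28 and 29.9 CPM (1.24 ± 0.12, adjusted p = 7.6e-07). None of these groups overlapped. P4HA1 went from 48.7, 42.3 and 45.6 to 94.1, 77.4 and 95.2 CPM (0.96 ± 0.09, adjusted p = 3.1e-07), and P4HA2 from 36.3 ± 0.726 to 64.2 ± 4.59 (0.82 ± 0.07, adjusted p = 2.4e-07). BNIP3L went from 55.9, 51.8 and 51.1 to 97.4, 84.1 and 98.9 CPM (0.82 ± 0.11, adjusted p = 1.2e-05) and BNIP3 from 93 ± 5.18 to 135 ± 8.05 (0.54 ± 0.06, adjusted p = 2.7e-06). Both mitophagy receptors were thus higher without doxycycline, as were VEGFA (0.70, adjusted p = 7.3e-06), PDK1 (0.68, adjusted p = 1.4e-06), ADM (0.58, adjusted p = 0.0021) and KDM3A (0.51, adjusted p = 9e-05; 0.32 and still called with the length and span trend removed).

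The glycolytic genes that were lower without doxycycline in the parental line were led by the carrier SLC2A1. It went from 59.5, 58.5 and 59.1 to 27.8, 34.5 and 33.6 CPM (−0.89 ± 0.12, adjusted p = 1.2e-05). PGAM1 went from 332, 326 and 336 to 206, 225 and 192 CPM (−0.67 ± 0.07, adjusted p = 1.1e-06). GAPDH went from 2420 ± 37.2 to 1710 ± 35.9 CPM and PKM from 2430 ± 63.3 to 1710 ± 147 (−0.50 each, adjusted p = 1.2e-05 and 1.4e-05). Each of these enzymes was lower in every library without doxycycline. TPI1 (−0.44), LDHA (−0.40), HK2 (−0.32, and −0.52 with the length and span trend removed) and ENO1 (−0.24) were lower as well. SLC2A3, the carrier with a high affinity for glucose, went the other way from 14.8, 13.6 and 11.5 to 20.7, 21.1 and 23.9 CPM (0.72 ± 0.16, adjusted p = 0.0014), and so did ENO2, the enolase best known from neurons (0.36 ± 0.10, adjusted p = 0.0062).

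A few of the parental calls were lost when 1 of several libraries was left out, or under another setting. PFKM (0.25, adjusted p = 0.004) was at 0.16, still called, without parental no-doxycycline replicate 3, and was not called with the length and span trend removed (0.11). GPI (−0.20, adjusted p = 0.021) was not called without parental no-doxycycline replicate 1 (−0.15), parental doxycycline replicate 2 (−0.20) or 3 (−0.20), or with library size alone (−0.16), and was at −0.33 with the length and span trend removed. SLC16A3 (0.34, adjusted p = 0.029) was not called without parental no-doxycycline replicate 1 (0.31) or 2 (0.25), parental doxycycline replicate 2 (0.32) or 3 (0.32), or with the length and span trend removed (0.20). EGLN3 (−0.40, adjusted p = 0.025), the hydroxylase gene, was not called without parental no-doxycycline replicate 1 (−0.41) or 3 (−0.28), parental doxycycline replicate 1 (−0.38) or 2 (−0.40), or with library size alone (−0.35). MXI1 (0.27, adjusted p = 0.016) was not called without parental no-doxycycline replicate 1 (0.24) or parental doxycycline replicate 2 (0.25), or with the length and span trend removed (0.16). HIF1A was not called (−0.07, adjusted p = 0.40; 150 ± 3.68 and 143 ± 7.68 CPM).

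The change of the deleted line was compared with that of the parental line, which shares no library with it. At day 6, 7 glycolytic genes were called in both lines, 6 of them in the same direction: TPI1, GAPDH, PGAM1, ENO1, PKM and LDHA fell in both. PFKFB4 was the exception. Of 4 other HIF targets called in both, PDK1, P4HA2 and VEGFA rose in both and BNIP3 did not. Over all genes called in both, 216 of 3519 (6.14%) had opposite signs at day 6. At day 9, 13 glycolytic genes were called in both and all 13 had opposite signs, as had 6 of 7 other HIF targets, with VEGFA the exception. Over all genes, 4383 of 5151 (85.1%) had opposite signs at day 9. At day 3, opposite signs were found in 4 of 4 glycolytic genes, 6 of 6 others and 1694 of 1818 of all genes (93.2%). The members' shares at days 3 and 9 were thus near those of all genes, and at day 6 PFKFB4 and BNIP3 stood among the few genes with opposite signs.

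**Figure D4:**
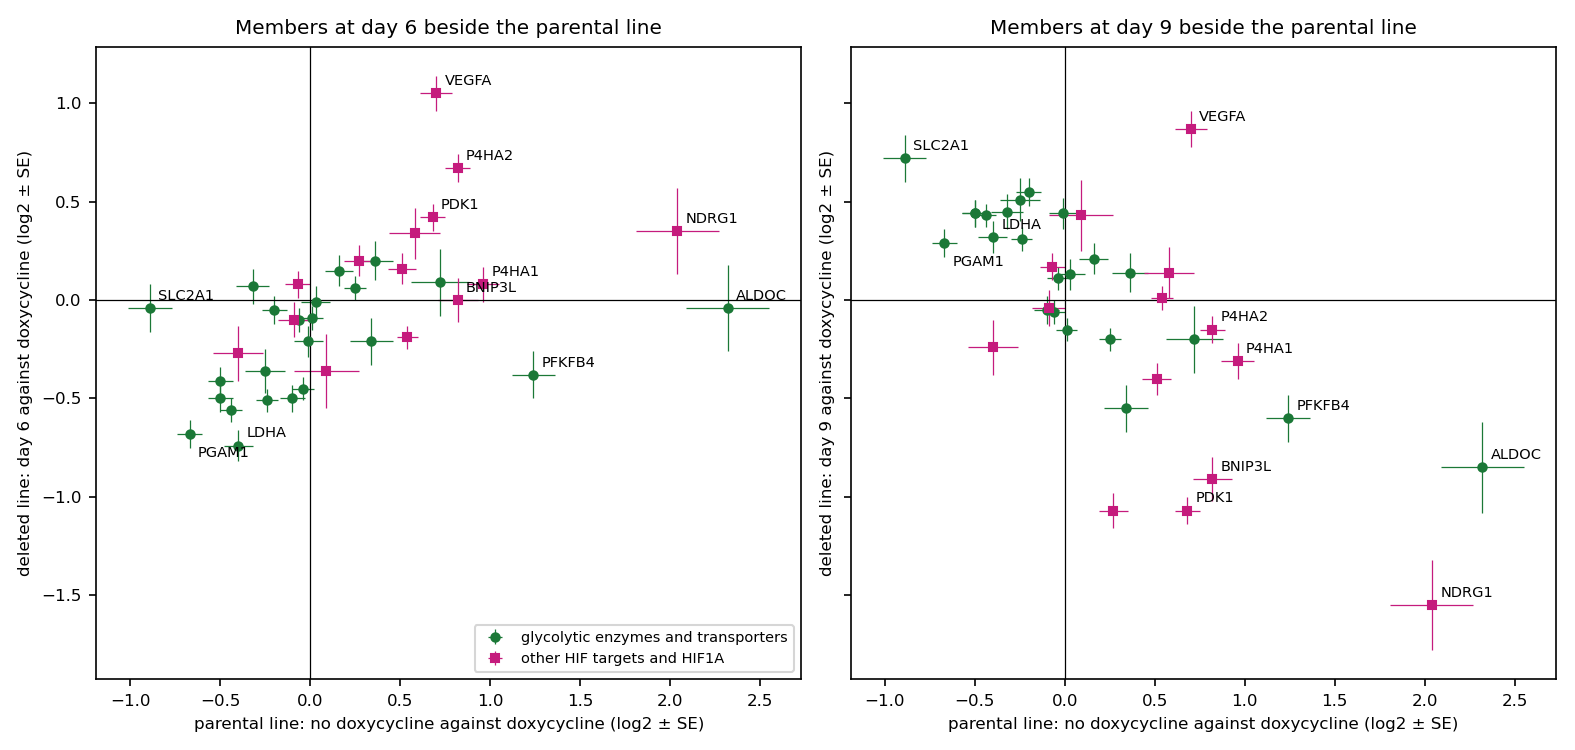
Log2 fold change ± SE in the deleted line (y axis) at day 6 (left) and day 9 (right), against that of the parental line without against with doxycycline (x axis), for glycolytic genes (green circles) and other hypoxia-response genes (magenta squares). VEGFA is above 0 on both axes in both panels, and NDRG1 is at 2.04 in the parental line and at 0.35 (day 6) and −1.55 (day 9) in the deleted line.

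The difference between the lines was tested as the deleted-line change minus the parental change. At day 3, 26 of the 37 genes were called (9 higher and 6 lower among glycolytic genes, 1 higher and 10 lower among others), where 39.5% of all genes were. At day 6, 11 were called (1 higher and 6 lower glycolytic, 0 higher and 4 lower others), against 12.6%. At day 9, 25 were called (11 higher and 5 lower glycolytic, 1 higher and 8 lower others), against 51.7%. Library size alone shifted the day 9 differences of all genes by −0.105 and gave 0 higher and 9 lower others there, and 2 higher and 6 lower glycolytic genes at day 6. Of all genes, that scaling gave 4458 higher and 6801 lower at day 9, and 1416 higher and 1386 lower at day 6. The deepest differences were in ALDOC (−3.36 at day 3, −2.36 at day 6 and −3.17 at day 9, each ± 0.32) and NDRG1 (−3.34, −1.69 and −3.60), which were higher in the parental line without doxycycline and not called higher on any day in the deleted line. SLC2A1 differed the other way (1.41, 0.85 and 1.61, each ± 0.16). PGK1 (−0.41 ± 0.08, adjusted p = 0.0047) and LDHB (−0.40 ± 0.10, adjusted p = 0.012) differed at day 6, when both had fallen in the deleted line. Neither was called in the parental line. The day 6 differences of TPI1 (−0.13), GAPDH (0.09), PGAM1 (−0.01), ENO1 (−0.27) and PKM (0.00) were not called (adjusted p = 0.052 to 1).

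Some of these differences were not stable. At day 6, LDHA (−0.34, adjusted p = 0.042) was not called without 8 of the 12 libraries: parental no-doxycycline replicate 1 (−0.32) or 3 (−0.31), parental doxycycline replicate 1 (−0.34), 2 (−0.33) or 3 (−0.35), deleted-line doxycycline replicate 3 (−0.27), and day 6 replicate 2 (−0.31) or 3 (−0.31). SLC16A3 (−0.55, adjusted p = 0.036) was not called when any 1 of 11 of the 12 was left out (−0.48 to −0.58), nor with library size alone (−0.53). It was called without parental no-doxycycline replicate 3 (−0.63). At day 3, SLC2A3 (−0.73, adjusted p = 0.017) was not called without parental doxycycline replicate 3 (−0.63) or day 3 replicate 1 (−0.65). HIF1A differed by 0.25 at both day 3 and day 9 (adjusted p = 0.043 and 0.034). At day 3 it was not called without parental no-doxycycline replicate 2 (0.22), any parental doxycycline replicate (0.23 to 0.26), any deleted-line doxycycline replicate (0.24 to 0.26) or day 3 replicate 2 (0.23) or 3 (0.26), nor with no low-count filter (0.25). At day 9 it was not called without parental no-doxycycline replicate 2 (0.22), parental doxycycline replicate 2 (0.23) or 3 (0.25), replicate 1 (0.26) or 2 (0.24) of the deleted line with doxycycline or day 9 replicate 3 (0.17), nor with library size alone (0.14) or no low-count filter (0.26). With the length and span trend removed, the HIF1A differences were 0.39 and 0.42, both called.

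With doxycycline in both, the deleted line had lower glycolytic levels than the parental line. Of the 23 glycolytic genes, 15 were lower, 0 higher and 8 not called (median −0.28, all genes 0.01), where 9.97% of all genes were lower and 9.32% higher. Of the 14 others, 4 were higher, 1 lower and 9 not called (median 0). SLC2A3 stood at 14.8, 13.6 and 11.5 CPM in the parental and 5.97, 5.8 and 6.78 in the deleted line (−1.11 ± 0.16, adjusted p = 9.9e-05), without overlap. SLC2A1 (−0.59 ± 0.12, adjusted p = 0.0014), HK2 (−0.50), ENO2 (−0.41), PGAM1 (−0.33), ENO1 (−0.32), PGK1 (−0.29), TPI1 (−0.28) and GAPDH (−0.28) were lower as well. NDRG1 was higher in the deleted line, 7.99, 7.83 and 5.58 against 2.46, 2.83 and 1.7 CPM (1.61 ± 0.23, adjusted p = 6.4e-05), and so was BNIP3L (0.51 ± 0.11, adjusted p = 0.0024). Of the 20 calls, 11 held without each library in turn. Without deleted-line doxycycline replicate 2, 13 genes were called.

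The other 9 calls between the lines were lost when 1 library was left out. GPI (−0.26) was lost without deleted-line doxycycline replicate 2 (−0.22), ADM (0.51) without the same library (0.38), and BNIP3 (−0.24) without parental doxycycline replicate 1 (−0.19). SLC16A1 (−0.30) was lost without parental doxycycline replicate 3 (−0.27) or deleted-line doxycycline replicate 1 (−0.26). PFKP (−0.19) was lost without parental doxycycline replicate 1 (−0.18), 2 (−0.21) or 3 (−0.20) or replicate 1 (−0.20) or 2 (−0.17) of the deleted line. PFKFB3 (−0.28) was lost without parental doxycycline replicate 1 (−0.23) or 2 (−0.30) or replicate 1 (−0.29), 2 (−0.28) or 3 (−0.26) of the deleted line. PKM (−0.21) and LDHA (−0.23) were lost without any parental doxycycline replicate (−0.19 to −0.23 and −0.23 to −0.24) or without deleted-line doxycycline replicate 1 (−0.20 each) or 2 (−0.17 and −0.20). With the length and span trend removed, PKM (−0.21), LDHA (−0.19) and PFKP (−0.19) were not called either, and LDHA was at −0.14, not called, with GC removed as well. PFKP was also lost with no low-count filter (−0.20). MXI1 (0.28) was lost without any parental doxycycline replicate (0.26 to 0.29) or deleted-line doxycycline replicate 1 (0.25) or 2 (0.30).

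Isozymes of a step did not keep a fixed balance, described here per kilobase and without a test. LDHA made up 34.5%, 34.8% and 36.2% of LDHA and LDHB together with doxycycline in the deleted line, 38.7%, 38.3% and 38.1% at day 3, 31.8%, 30.3% and 32.1% at day 6 and 40.2%, 40.1% and 43.3% at day 9. In the parental line the LDHA share was 36.1%, 38.4% and 37.5% with and 32.2%, 33.4% and 32.1% without doxycycline. It was thus lowest in 6 libraries, those labelled day 6 and those of the parental line without the drug. ENO2 took 10.1%, 11.3% and 10.9% of the enolases at day 6 and 10.2%, 10.7% and 10.9% in the parental line without doxycycline, and between 4.76% and 7.43% in the other 12 libraries. HK2 took 20.7% ± 0.59 of HK1 and HK2 with doxycycline and 25.1% ± 0.55, 22.6% ± 1.4 and 28.2% ± 2.8 at days 3, 6 and 9. Its share was 24.7% ± 0.22 with and 20.6% ± 0.056 without doxycycline in the parental line.

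Among carriers, SLC2A1 took 81.9%, 83% and 85.3% of SLC2A1 and SLC2A3 in the parental line with doxycycline and 60.3%, 64.8% and 61.3% without. In the deleted line its share lay between 83.5% and 96.1% in all 12 libraries. SLC16A1 took 85.4% ± 1.2 of SLC16A1 and SLC16A3 with doxycycline in the deleted line, 89.3% ± 0.26 at day 3, 85.4% ± 0.51 at day 6 and 92% ± 1.9 at day 9. BNIP3L took 29.3% ± 0.52 of the mitophagy receptors BNIP3L and BNIP3 with doxycycline and 22.2% ± 0.34, 32.2% ± 2.6 and 17.8% ± 2.2 at days 3, 6 and 9. P4HA1 took 70.2% ± 1.9 of P4HA1 and P4HA2 with doxycycline and 60.9% ± 2.4 at day 6, and between 66% and 73.1% in the 15 libraries outside day 6. PFKFB4 took 30.1% ± 0.56 of PFKFB4 and PFKFB3 in the parental line without doxycycline and 16.9% ± 1.1 with it. PFKP took 59.3% to 69.4% of PFKP and PFKL, PFKM 28.5% to 44.7% of PFKM and PFKL, and EGLN3 17.7% to 28.3% of EGLN3 and EGLN1 over the 18 libraries.

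**Figure D5:**
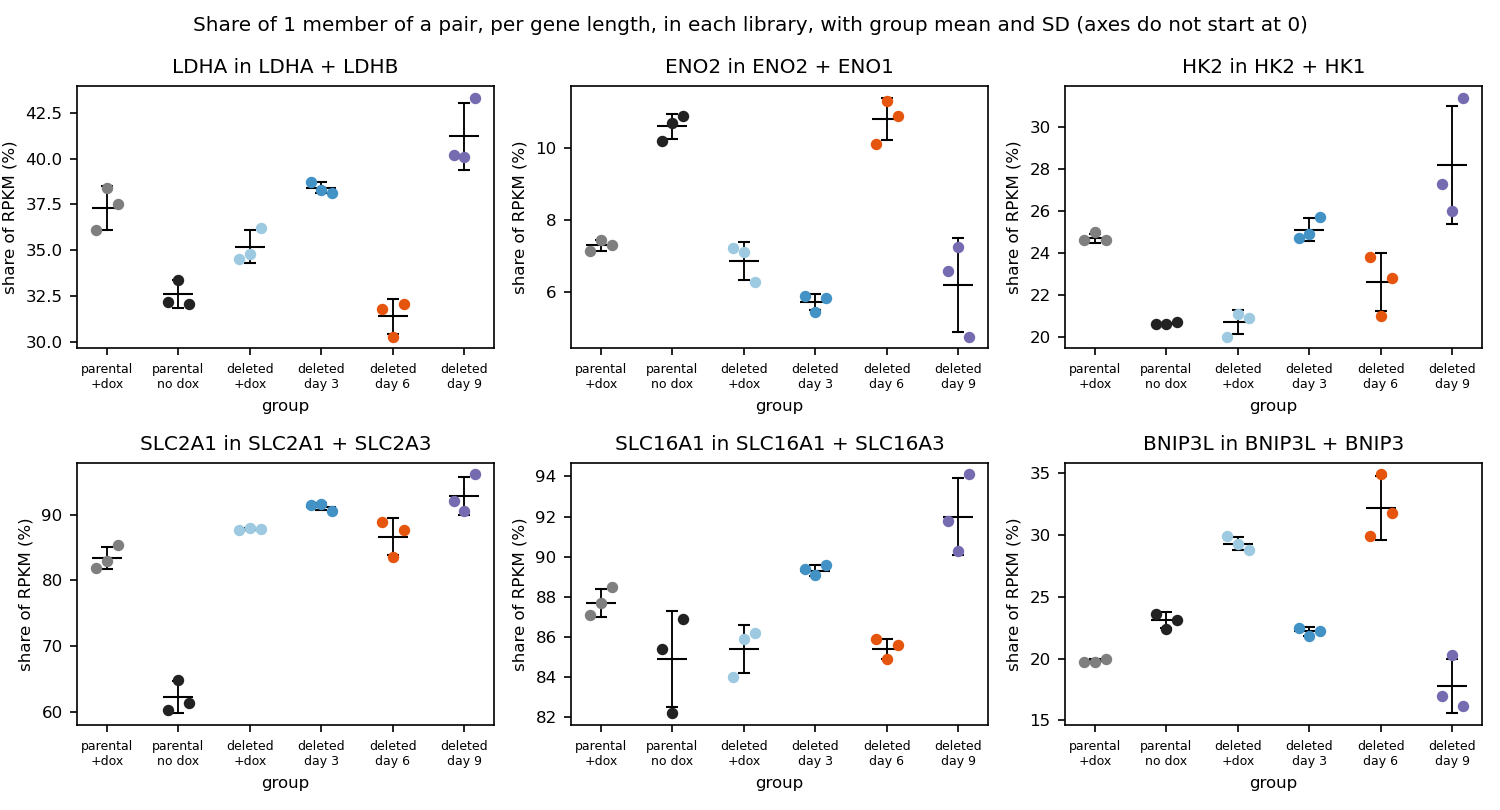
Share (%, y axes that do not start at 0) of 1 gene in a pair, per exon length, in each library (points), by group (x axis), with group mean and SD (black lines). The LDHA share is 31.4% ± 0.94 at day 6 and 41.2% ± 1.8 at day 9, and the SLC2A1 share is 62.2% ± 2.4 in the parental line without doxycycline.

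Glycolysis genes outside the 23, such as further carriers and tissue-specific isozymes, were read from a list of 24, of which 19 were tested. At day 3, 3 were higher and 2 lower. At day 6, 2 were higher and 5 lower, and at day 9, 8 were higher and 7 lower. In the parental line 5 were higher and 7 lower without doxycycline, and the deleted line had 0 higher and 5 lower. The called share of the list was 26.3%, 36.8% and 78.9% at days 3, 6 and 9 and 63.2% in the parental line, against 13.4%, 28.1%, 46.4% and 39.4% of all genes tested. Between the lines it was 26.3%, against 19.3%. SLC2A6, a lysosomal hexose carrier, stood at 12.3 CPM with doxycycline, 6.29 at day 6 and 18.5 at day 9 (−0.97 ± 0.15 and 0.59 ± 0.14, adjusted p = 1e-04 and 0.0023). The latter was 0.38, still called, with GC, length and span trends removed. In the parental line SLC2A6 went from 18.8 to 9.22 CPM without doxycycline (−1.03 ± 0.14, adjusted p = 2.2e-05). BPGM, which makes bisphosphoglycerate, fell at day 6 (−0.53 ± 0.07, adjusted p = 4.5e-05), and the muscle and fat carrier SLC2A4 fell at day 9 from 6.57 to 2.92 CPM (−1.17 ± 0.16, adjusted p = 9.4e-06). HKDC1, a hexokinase-like gene, was at 0.00373 CPM with doxycycline, 0.427 at day 6 and 0.0948 at day 9.

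HIF pathway regulators outside the 38 numbered 16, of which 15 were tested. At day 3, 5 were higher and 0 lower, at day 6, 1 and 5, at day 9, 5 and 3, and in the parental line without doxycycline 2 and 5. The called share was 33.3%, 40%, 53.3% and 46.7% in these comparisons, where 13.4%, 28.1%, 46.4% and 39.4% of all genes were called. CREBBP, a histone acetylase that serves HIF as coactivator, was higher at day 9 (124 to 172 CPM, 0.47 ± 0.10, adjusted p = 0.00059; 0.30, still called, without day 9 replicate 3, and 0.71 with the length and span trend removed). CITED2, which keeps HIF off that coactivator, was lower at day 9 (22.8 to 16.6 CPM, −0.46 ± 0.12, adjusted p = 0.0042). It was also lower in the parental line without doxycycline (23.5 to 18 CPM, −0.38 ± 0.12, adjusted p = 0.016). The parental call was lost without replicate 3 of either parental group (−0.23 without and −0.35 with doxycycline), or with GC, length and span trends removed (−0.27). RBX1, a subunit of the ubiquitin ligase that destroys HIF1A, was lower at day 6 (72.9 to 53.8 CPM, −0.44 ± 0.09, adjusted p = 0.00099). Of the same list, ELOB was higher at day 9 than at day 6 (0.65 ± 0.07, adjusted p = 4.1e-07) and ARNT lower (−0.41 ± 0.08, adjusted p = 0.00012). HIF1AN, an inhibitor of HIF, stood at 71.1 CPM with doxycycline and 95.2 at day 9 in the deleted line. No direction of HIF activity is read from these genes. EPAS1, which encodes the other main oxygen-regulated subunit, stood at only 1.89 CPM with doxycycline and 0.836 at day 9 (−1.17 ± 0.25, adjusted p = 0.00075).

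A further 38 HIF targets outside the 15 were read as well, of which 36 were tested. At day 3, 6 were higher and 3 lower, at day 6, 8 and 9, at day 9, 13 and 11, and in the parental line without doxycycline 16 and 7. Their called share was 25%, 47.2%, 66.7% and 63.9%, beside 13.4%, 28.1%, 46.4% and 39.4% of all genes. Their medians were −0.04, 0.04, 0.02 and 0.31. The deleted line had 6 higher and 6 lower, or 33.3% called against 19.3% of all genes. DDIT4, an inhibitor of the growth regulator mTORC1 that other stresses induce as well, rose from 18 CPM with doxycycline to 30.3 at day 3, 43 at day 6 and 57.9 at day 9 (0.75, 1.26 and 1.69, each ± 0.15, adjusted p = 0.0032, 1.1e-05 and 7.6e-08). It was also higher without doxycycline in the parental line (46.1 to 153 CPM, 1.73 ± 0.15, adjusted p = 2.2e-07). RORA, a nuclear receptor, fell at day 9 from 45.5 to 10.3 CPM (−2.15 ± 0.15, adjusted p = 3.6e-09) and stood at 88.6 at day 6. STC1, a secreted glycoprotein, went from 0.71 to 4.58 CPM when the parental line lacked doxycycline (2.67 ± 0.37, adjusted p = 2e-05). GYS1, muscle glycogen synthase, was lower there (87 to 49 CPM, −0.83 ± 0.08, adjusted p = 3.3e-07) and at day 6 (75.5 to 51.2 CPM, −0.56 ± 0.08, adjusted p = 3.3e-05). The chemokine receptor CXCR4 stayed at or below 0.482 CPM on average in the deleted line.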

How the data were processed

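Per the labels' protocols, Trizol and a column were used to harvest RNA, read as 151-bp pairs (Illumina NovaSeq). The authors deposited 3 tables of raw counts per gene, whole numbers with no normalization, with GRCh38 coordinates, per the file headers. The tools in the submitters' processing notes are featureCounts, Subread, HISAT2, DESeq2, SAMtools and cutadapt 2.3, with no role for each. Annotation release and strand setting: not given in the sources used here. In the tables, 16 genes broken over several lines were rejoined, and the 6 libraries present in more than 1 table, with identical values, entered once. All columns were matched to samples by name. The 37 mitochondrial genes held 0 counts.

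The test was the quasi-likelihood test of edgeR 4.0.16 (R 4.3.3) after filterByExpr by group (21615 genes) and TMM scaling, fitted to all 18 libraries with a mean for each group, and Benjamini-Hochberg adjustment over all genes tested. The script was tested on simulated data. CPM and RPKM were computed here from the deposited counts. Library totals were 66850705 to 111123481, and the common dispersion gave a coefficient of variation of 0.12. Every pair of replicates varied beyond counting noise (chi-square per gene 4.97 to 95.6), so none was treated as a copy. No label says that replicates were separate cultures, so the p-values rest on the spread between these samples alone, possibly technical. The 9 comparisons were each day against doxycycline, day 9 against day 6, the parental line without against with doxycycline, the lines with doxycycline, and the deleted-line change of each day minus the parental change.

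The members and lists were chosen with earlier results of these data known. All members could be named. Values in every library are given for the 6 largest called changes per list at days 6 and 9 and for isozyme pairs, and of each further list up to 2 called genes in each direction per comparison could be named. Alternatives were DESeq2 1.42.0, library size alone, no low-count filter, only the groups compared, the replicate number as a block, removal of trends on exon length and span, leaving out each library, and, chosen after seeing the data, removal of a GC trend as well (16923 genes, 78.3% of those tested, among them all 37 members). GC came from GENCODE v29 transcripts. Promoter windows came from RefSeq tables. A few results are not reported here.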

Additional observations from a re-analysis of the deposited data

Results flagged for a closer look

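The results below are those where the change of the deleted line differed from that of the parental line by an interaction test of the counts, limited to the 5 called genes with the largest absolute difference at each day. Each is the log2 change of the deleted line against doxycycline minus the log2 change of the parental line. At day 3 the aldolase ALDOC differed by −3.36, NDRG1 by −3.34, the mitophagy receptor BNIP3L by −1.47, PFKFB4 by −1.46 and the glucose carrier SLC2A1 by 1.41. At day 6 ALDOC differed by −2.36, NDRG1 by −1.69, PFKFB4 by −1.62, the collagen hydroxylase subunit P4HA1 by −0.89 and SLC2A1 by 0.85. At day 9 NDRG1 differed by −3.60, ALDOC by −3.17, PFKFB4 by −1.84, the pyruvate dehydrogenase kinase PDK1 by −1.75 and BNIP3L by −1.73. All of these calls held when each library of the groups concerned was left out in turn. The same test called 39.5%, 12.6% and 51.7% of all genes at days 3, 6 and 9. For NDRG1, SLC2A1 and BNIP3L the lines already differed with doxycycline. Levels in the deleted and the parental line were 7.13 and 2.33, 39.3 and 59, and 75.4 and 52.9 CPM in turn.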

How the results depend on the processing

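Signs of the members' single results were compared only where the reported or the alternative result was called. Among those, a direction turned only for HK1. Its day 9 value was 0.06 with the length and span trend removed. Its difference between days 9 and 6 turned to 0.30 with that trend removed and to 0.27 with GC as well. The cause was not tested. Counts of called members stayed within 1.5 times of those reported, with 2 exceptions: at day 3, 22 were called with only the groups compared in place of 10, and between the lines, 13 without deleted-line doxycycline replicate 2 in place of 20, with fewer libraries in each fit. Shares of all genes called in these fits are not given here. Leaving out each library gave 7 to 9 called members at day 3, 11 to 16 at day 6, 21 to 25 at day 9, 24 to 28 for day 9 against day 6, 22 to 26 in the parental line and 13 to 19 between the lines. For the differences between lines it gave 24 to 27, 9 to 12 and 24 to 28. DESeq2 ended 0 calls and added 13, library size alone ended 9 and added 19. Replicate numbers did not pair the samples: the deviations of 45 same-numbered pairs correlated at −0.08 to 0.07, and 3 of 18 libraries were closest to their own number. With the replicate number as a block, called members numbered 10, 15, 23, 25, 26 and 20 in the comparisons above and 25, 13 and 25 in the differences between lines, with 3 calls gained and 3 lost: P4HA1 at day 3 (−0.28), HIF1A at day 9 (0.17) and the HIF1A difference between lines at day 3 (0.25). CA9, with 63 counts in all, was the member that depth left untested.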

Other observations

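The routes on either side of glycolysis were read from lists as well. Of 8 pentose phosphate pathway genes, which divert glucose phosphate into NADPH and ribose, 3 were lower at day 6, 2 higher at day 9, and 4 lower in the parental line without doxycycline. The called share was 37.5%, 25% and 50%, against 28.1%, 46.4% and 39.4% of all genes. PGD, a dehydrogenase of that pathway, rose at day 9 from 290 to 365 CPM (0.33 ± 0.05, adjusted p = 3.7e-05), and TALDO1, transaldolase, fell at day 6 from 190 to 140 CPM (−0.44 ± 0.06, adjusted p = 1.8e-05).

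Another list held 13 genes for the mitochondrial pyruvate carrier, pyruvate dehydrogenase and the enzymes that control it. Of these, 1 was higher and 1 lower at day 3, 0 and 4 at day 6, and 3 and 4 at day 9. In the parental line without doxycycline, 5 were higher and 1 lower. The called share was 15.4%, 30.8%, 53.8% and 46.2%, close to the 13.4%, 28.1%, 46.4% and 39.4% of all genes. PDHB, a subunit of pyruvate dehydrogenase, fell at day 6 from 141 to 107 CPM (−0.40 ± 0.06, adjusted p = 4.7e-05; −0.24, still called, with GC, length and span trends removed). MPC1, a subunit of the mitochondrial pyruvate carrier, rose at day 9 from 29.1 to 38.4 CPM (0.40 ± 0.08, adjusted p = 0.00047). PDP2, the phosphatase that reactivates pyruvate dehydrogenase, fell at day 9 from 76.6 to 51.2 CPM (−0.58 ± 0.09, adjusted p = 4.7e-05) and was higher in the parental line without doxycycline (82.1 to 116 CPM, 0.50 ± 0.09, adjusted p = 0.00033). PDK4, a kinase opposing it, fell at day 9 from 2.24 to 0.611 CPM (−1.88 ± 0.38, adjusted p = 0.00047; −2.92 without day 9 replicate 2).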
